A study of Mus musculus with 6 samples.

Results

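The 10 genes described here are 5 S100 genes, S100a4, S100a6, S100a10, S100a11 and S100a13, and 5 annexin genes, Anxa1, Anxa2, Anxa4, Anxa5 and Anxa6, taken by name from the 54532 genes of the deposited table. They are S100 and annexin genes other than S100a8 and S100a9, which encode the abundant calprotectin proteins of neutrophils. The set was picked with the difference between the genotype groups in view, so the values of these 10 genes in that comparison are a description and carry no test. RNA of bone marrow (BM) was sequenced at day 100 after transplantation into C57BL/6 mice, in 3 libraries labelled Phf6 wild-type (WT 1 to WT 3) and 3 labelled Phf6 knockout (KO 1 to KO 3). By the methods of the study, lineage-negative donor BM cells of Vav1-Cre;Phf6 fl/y mice (KO) or Phf6 fl/y mice without Cre (WT) received a retrovirus carrying GFP and JAK3 M511I, a mutant Janus kinase that is constantly active and drives T-cell leukemia (T-ALL) in this model, and were injected into lethally irradiated male recipients 8 weeks old. Both groups thus carried JAK3 M511I. Vav1-Cre acts in blood cells from the embryonic stage and removes exons 4 to 5 of Phf6. The genotype labels give the last digit of the gene symbol as a number rising from sample to sample, and all 6 were read as Phf6, the gene in the design text. The study calls the profiled material T-ALL cells and used GFP+ cells, a gate that leaves out recipient cells, in related assays. The labels name BM cells and no such sort, so whether recipient blood and stromal cells were part of the libraries is not known, and they do not say whether the 3 libraries of a group came from separate mice.

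S100 proteins are small calcium-binding proteins with EF-hand motifs that bind partner proteins when calcium rises. Annexins bind acidic phospholipids of membranes when calcium rises, and act in membrane traffic, membrane repair and, for Anxa1, in limiting inflammation. The families meet in complexes: S100a10 binds Anxa2, with which it also forms a receptor for plasminogen at the cell surface, and S100a11 binds Anxa1. Many of these genes are known for high expression in myeloid cells and in activated or effector lymphocytes.

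All 5 S100 genes of the set lie on mouse chromosome 3 (GRCm38), in 2 places. S100a13 (chr3:90514435-90524581), S100a4 (chr3:90603771-90606045) and S100a6 (chr3:90612882-90624181) stand in the large S100 cluster that also holds S100a8 and S100a9. S100a11 (chr3:93520488-93526287) and S100a10 (chr3:93555080-93564643) form a pair 2824.77 kb further on, with 28.792 kb between them. All 5 are on the plus strand. The annexin genes are spread over 5 chromosomes: Anxa1 at chr19:20373428-20390944 (minus strand), Anxa2 at chr9:69453620-69491795 (plus), Anxa4 at chr6:86736840-86793584 (minus), Anxa5 at chr3:36448923-36475894 (minus) and Anxa6 at chr11:54979108-55033445 (minus). The sequences before the start of 4 genes are shown because they cover the range of responses: S100a11 and S100a6 were nearly absent from the KO-labelled libraries, S100a4 was the lowest of the 5 S100 genes in every library, and Anxa2 had overlapping groups. Each runs 5′ to 3′ on the plus strand and ends before the first base of the deposited gene model. It comes from the RefSeq promoter table of GRCm38.p6, which held 8 of the 10 genes (S100a10 and Anxa6 were not in it). Capitals mark matches to the AP-1 motif TGACTCA (printed as its reverse complement, TGAGTCA), the GC box GGGCGG and the TATA box TATAAA.
S100a11, chr3:93520246-93520487: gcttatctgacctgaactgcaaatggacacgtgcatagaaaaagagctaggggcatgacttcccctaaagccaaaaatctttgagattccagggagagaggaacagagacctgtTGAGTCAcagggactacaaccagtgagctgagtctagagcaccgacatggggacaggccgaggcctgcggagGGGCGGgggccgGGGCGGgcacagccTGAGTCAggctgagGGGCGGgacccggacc
S100a6, chr3:90612644-90612881: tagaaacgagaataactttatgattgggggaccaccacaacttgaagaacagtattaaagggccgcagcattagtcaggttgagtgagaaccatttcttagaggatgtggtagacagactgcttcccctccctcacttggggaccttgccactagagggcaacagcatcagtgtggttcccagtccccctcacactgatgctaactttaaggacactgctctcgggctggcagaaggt
S100a4, chr3:90603520-90603769: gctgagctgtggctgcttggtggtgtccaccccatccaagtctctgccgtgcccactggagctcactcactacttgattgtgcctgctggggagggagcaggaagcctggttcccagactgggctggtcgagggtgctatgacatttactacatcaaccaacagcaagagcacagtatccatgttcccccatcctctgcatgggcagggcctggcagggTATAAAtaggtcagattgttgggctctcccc
Anxa2, chr9:69453433-69453619: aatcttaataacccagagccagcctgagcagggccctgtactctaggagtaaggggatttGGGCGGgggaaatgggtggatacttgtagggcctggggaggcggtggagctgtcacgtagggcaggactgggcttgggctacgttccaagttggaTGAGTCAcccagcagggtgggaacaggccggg

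Motif matches were counted on both strands in the 250 bases before each transcript start, for the 9 promoters of these 8 genes and for all 32851 promoters of the table. The AP-1 motif stood in 2 of the 9 promoters, those of S100a11 and Anxa2, and in 4.46% of all. S100a11 had it at 136 and 38 bases before the start, and Anxa2 at 95 bases. Distances are to the RefSeq start, which can lie past the end of a printed sequence. For Anxa2, the GC boxes at 48 and 24 bases and the TATA box at 17 bases are therefore not shown. Exons of GENCODE M21 covered all 250 bases of the Anxa1 window, 208 of the Anxa5 window and 192 of the S100a13 window, and 63 or fewer of the others. The GC box stood in the same 2 promoters, against 32.7% of all. The TATA box stood in 3 promoters (Anxa1, Anxa2 and S100a4), against 12.4% of all. The STAT motif TTCNNNGAA, present in 7.02% of all promoters, and the PU.1 core GAGGAAG, present in 10.6%, were in none of the 9. No match overlapped another in the printed sequences. S100a11, with a wide gap between the groups, and Anxa2, whose groups overlapped, thus both had the AP-1 and GC box letters. A match says only that the letters are present in this window.

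Total reads recovered from the table ran from 13015823 to 18235095 per library. WT 2 stood apart from the other 5 libraries. Its log2(FPKM + 1) values over the genes tested correlated with those of WT 1 and WT 3 at r = 0.779 and 0.746, while WT 1 and WT 3 correlated at 0.948 and the KO-labelled libraries at 0.963 to 0.973 with each other. Genes shorter than 1000 bases took 17.1% of the reads of WT 2 and 3.11% to 5.01% in the other libraries. Genes of 8000 bases or more took 6.74% in WT 2 and 22.9% to 26.5% in the others. In the set, S100a11, S100a4 and S100a13 are under 1000 bases (511, 584 and 715), and the other genes are longer. Fold changes of the genes of the set are therefore given with and without WT 2. Phf6 was at 7.47, 3.67 and 8.02 FPKM (fragments scaled to gene length and library size) in WT 1 to WT 3 and at 6.73, 5.50 and 5.11 in KO 1 to KO 3, so the level over the whole gene, which includes exons outside the floxed part, did not separate the labels.

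S100a6, S100a10 and S100a11 were the members of the set with the widest gap between the groups. S100a11, an EF-hand protein that binds Anxa1, was at 591, 2431 and 174 FPKM in WT 1, WT 2 and WT 3 and at 1.996, 2.49 and 5.83 in KO 1, KO 2 and KO 3. The lowest WT-labelled library was thus far above the highest KO-labelled library, and WT 2 was the highest of all. S100a6 (calcyclin) was at 383, 1281 and 159 FPKM in the WT-labelled and at 1.296, 2.88 and 3.09 in the KO-labelled libraries. S100a10 (p11), which holds its active shape without calcium and tethers Anxa2, was at 108, 615 and 100.9 against 0.443, 0.262 and 1.02 FPKM. For each of these genes the groups did not overlap. The log2 fold changes of FPKM + 1 (KO minus WT, ± SE, n = 3 per group) were −7.25 ± 0.93 for S100a11, −7.01 ± 0.74 for S100a6 and −6.94 ± 0.71 for S100a10. Without WT 2 they were −6.28 ± 0.59, −6.22 ± 0.43 and −6.09 ± 0.23. The WT-labelled mean was 310, 251 and 476 times the KO-labelled mean for the 3 genes in that order, and 111, 112 and 181 times without WT 2. The KO-labelled level of S100a10 rested on 10, 5 and 20 reads. In bulk RNA, fewer cells that express a gene and less of its RNA per cell cannot be told apart, and this holds for every gene below.

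**Figure D1:**
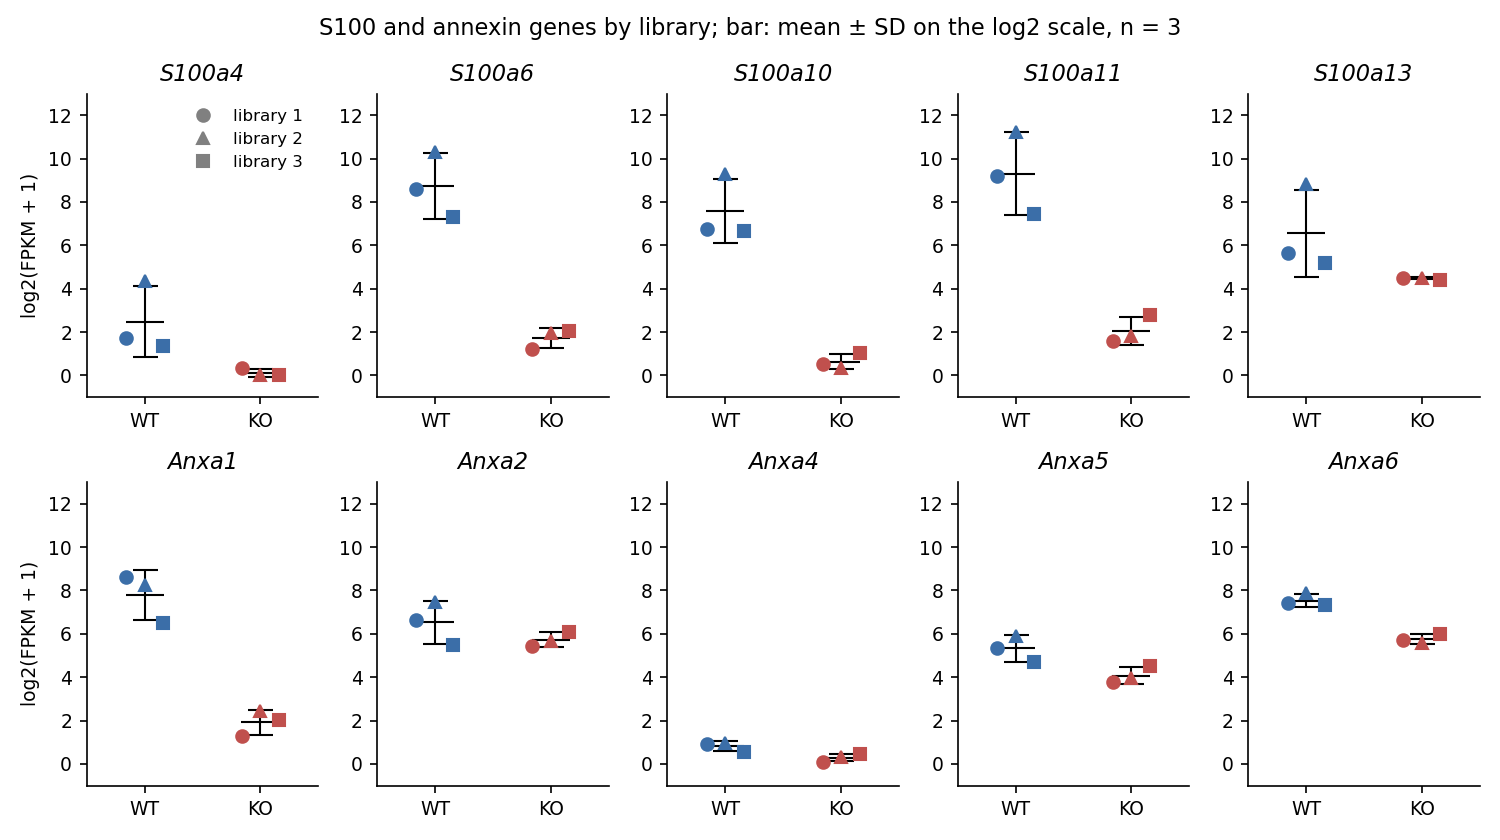
Each panel plots log2(FPKM + 1) of a gene in the 3 WT-labelled (blue) and 3 KO-labelled (red) libraries, with the mean ± SD. S100a6, S100a10, S100a11 and Anxa1 have wide gaps between the groups, S100a13 and Anxa5 narrow ones, and the groups of Anxa2 overlap.

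The other S100 genes of the set differed in level and in pattern. S100a13, which acts in the release of proteins that lack a signal peptide, was at 48.7, 457 and 35.4 FPKM in WT 1 to WT 3 and at 21.8, 21.5 and 20.4 in KO 1 to KO 3. The KO-labelled libraries were close to each other (mean 21.3 ± 0.747 SD, n = 3) and below all WT-labelled ones, while WT 2 stood 10.9 times above the mean of WT 1 and WT 3. Its log2 fold change was −2.08 ± 0.93, or −0.94 ± 0.16 without WT 2, and the WT-labelled mean was 8.49 times the KO-labelled mean with WT 2 and 1.98 times without it. The size of this gap thus depended on 1 library more than that of S100a10, whose ratio moved from 476 to 181. S100a4, a protein of motile and invasive cells that binds non-muscle myosin, was at 2.33, 19.7 and 1.55 FPKM in the WT-labelled libraries, from 21, 135 and 14 reads, and at 0.276, 0 and 0 in the KO-labelled libraries, from 3, 0 and 0 reads. The rate of reads was 67.0 times higher in the WT-labelled group (95% exact interval 22.5 to 328), and 19.0 times without WT 2 (6.00 to 96.7). Its log2 fold change was −2.37 ± 0.77, or −1.42 ± 0.21 without WT 2. A count of 0 allows up to 3 reads, or 0.326 FPKM in KO 2 and 0.319 in KO 3. Of its 584 exon bases, 302 (51.7%) are shared on the same strand with the gene model Gm42674, to which no reads were assigned in any library, so its level is uncertain.

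Among the annexins, Anxa1 had by far the widest gap. Anxa1 (lipocortin), which limits the recruitment of neutrophils through formyl peptide receptors, was at 393, 301 and 88.6 FPKM in WT 1 to WT 3 and at 1.44, 4.46 and 3.05 in KO 1 to KO 3. The groups did not overlap, and WT 2 was not the highest library here. Its log2 fold change was −5.86 ± 0.61, or −5.64 ± 0.66 without WT 2, and the WT-labelled mean was 87.5 times the KO-labelled mean with WT 2 and 80.7 times without it.

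Anxa6, an annexin with a doubled core that binds cholesterol-rich and endosomal membranes, was at 168, 232 and 158 FPKM in the WT-labelled and at 52.1, 46.6 and 63.2 in the KO-labelled libraries. Its groups were tight and did not overlap, with a log2 fold change of −1.76 ± 0.29 (−1.59 ± 0.16 without WT 2), and it kept a high level in both. Anxa5, known as a probe for phosphatidylserine on dying cells, was at 40.1, 59.3 and 25.1 against 12.8, 14.4 and 21.7 FPKM. Here KO 3 came close to WT 3, with a difference of −1.25 ± 0.38 on the log2 scale (−0.96 ± 0.29 without WT 2). Anxa2, the partner of S100a10, was at 97.3, 175 and 43.9 FPKM in WT 1 to WT 3 and at 42.0, 49.9 and 67.2 in KO 1 to KO 3. The groups overlapped, since WT 3 lay below KO 2 and KO 3. Its log2 fold change was −0.79 ± 0.52, or −0.32 ± 0.37 without WT 2, and turned to 0.037 after rescaling to TPM, which sets the summed level per length to the same total in every library. Anxa4, an annexin of epithelial cells, was under 1 FPKM in all 6 libraries, with 66, 53 and 35 reads in the WT-labelled and 7, 18 and 27 in the KO-labelled libraries. Its groups did not overlap, and the rate of reads was 3.50 times higher in the WT-labelled group (95% exact interval 2.54 to 4.89). These intervals pool the reads of each group, so they cover counting error only and leave out the spread between libraries. Reads copied by PCR are also not independent molecules, which the intervals do not allow for.

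Of the 10 genes, 9 passed the filter on low values (at least 1 FPKM in at least 3 of the 6 libraries), and Anxa4 did not. S100a4 passed only through the WT-labelled libraries, and S100a10 reached 1 FPKM in only 1 KO-labelled library. With limma over all 13393 genes tested and Benjamini-Hochberg adjustment, 13.3% of genes were lower in the KO-labelled libraries past the threshold of 0.05 and 13.1% were higher. The set had 5 genes lower (S100a6, S100a10, S100a11, Anxa1 and Anxa6) and 0 higher. Every KO-labelled library lay below every WT-labelled library in 22.9% of the genes tested and, in the set, for all genes but Anxa2. The median log2 fold change of the 9 genes was −2.37 (−1.59 without WT 2), beside 0.086 (0.040 without WT 2) over all genes tested. Because the genes were picked on this comparison, nothing is read from these counts. Without WT 2 the number of the set past the threshold was 8, and without WT 3 it was 7. Over all 13393 genes tested, the number lower was 1785 with all libraries, 3383 without WT 2 and 1661 without WT 3.

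**Figure D2:**
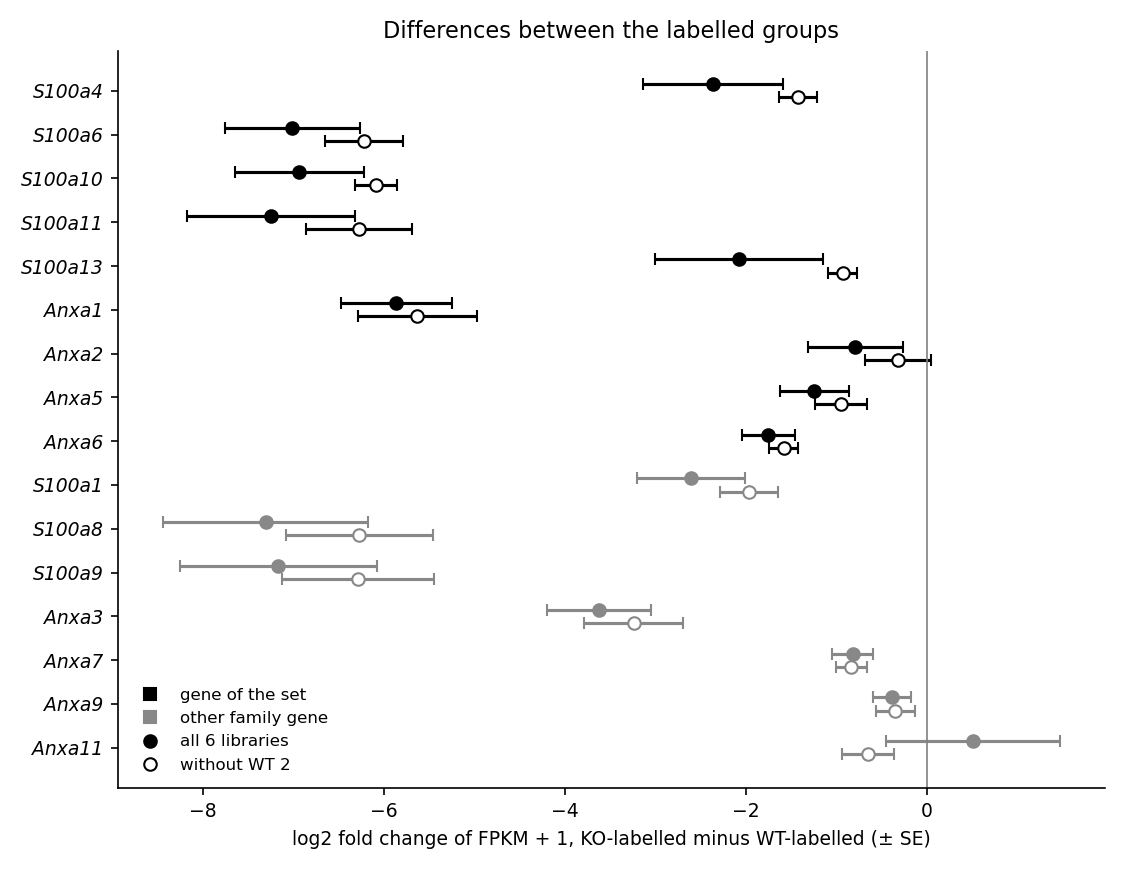
Points give the log2 fold change of FPKM + 1 (KO-labelled minus WT-labelled, ± SE) for the tested genes of the set (black) and of the rest of both families (grey), with all 6 libraries (filled) and without WT 2 (open). The genes of the set run from −7.25 for S100a11 to −0.79 for Anxa2, and Anxa11 lies above 0 with WT 2 and below 0 without it.

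The make-up of the set differed between the groups. The S100 genes summed to 1132, 4803 and 470 FPKM in WT 1 to WT 3 and to 25.9, 27.1 and 30.4 in KO 1 to KO 3, and the annexin genes to 699, 768 and 316 against 108, 116 and 156 FPKM. The S100 sum was thus above the annexin sum in all 3 WT-labelled libraries (1.62, 6.25 and 1.49 times) and below it in all 3 KO-labelled libraries (0.238, 0.235 and 0.195 times). S100a11, S100a6 and S100a10 were the 3 highest means in the WT-labelled group, although 7 of the 9 pairs of neighbours in the order of means had overlapping library ranges there, and the ranges of Anxa5 and S100a4 and of S100a4 and Anxa4, the 3 lowest genes, did not overlap. In the KO-labelled group Anxa6 (54.0 ± 8.46 FPKM, SD) and Anxa2 (53.0 ± 12.9) were highest with overlapping ranges. S100a13 (21.3 ± 0.747) and Anxa5 (16.3 ± 4.78) came next, again with overlapping ranges, and then S100a11, Anxa1 and S100a6 at 3.44, 2.98 and 2.42 FPKM. S100a13 made up 84.5%, 79.3% and 67.2% of the S100 sum in KO 1 to KO 3 and 4.30%, 9.52% and 7.52% in WT 1 to WT 3. Anxa1 made up 56.2%, 39.2% and 28.0% of the annexin sum in the WT-labelled libraries and 1.33%, 3.85% and 1.96% in the KO-labelled ones.

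The gene pairs whose proteins form complexes did not move alike. The ratio of S100a10 to Anxa2 levels was 1.11, 3.51 and 2.30 in WT 1 to WT 3 and 0.0105, 0.00525 and 0.0153 in KO 1 to KO 3, so the groups did not overlap and the partner with the lower level changed from Anxa2 to S100a10. The ratio of S100a11 to Anxa1 was 1.503, 8.07 and 1.96 against 1.39, 0.558 and 1.91, with overlapping groups. The ratios of S100a11 and of Anxa1 to S100a9, the neutrophil gene outside the set, varied between libraries and also had overlapping groups. The other genes of the set were not compared with S100a9 in this way, so whether this is particular to S100a11 and Anxa1 is not known. S100a11 was 0.0409, 0.0626 and 0.0639 of S100a9 in the WT-labelled and 0.0566, 0.0217 and 0.0482 in the KO-labelled libraries, and Anxa1 was 0.0272, 0.00776 and 0.0326 against 0.0408, 0.0388 and 0.0252. These ratios use the values on which the genes were picked and carry no test.

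**Figure D3:**
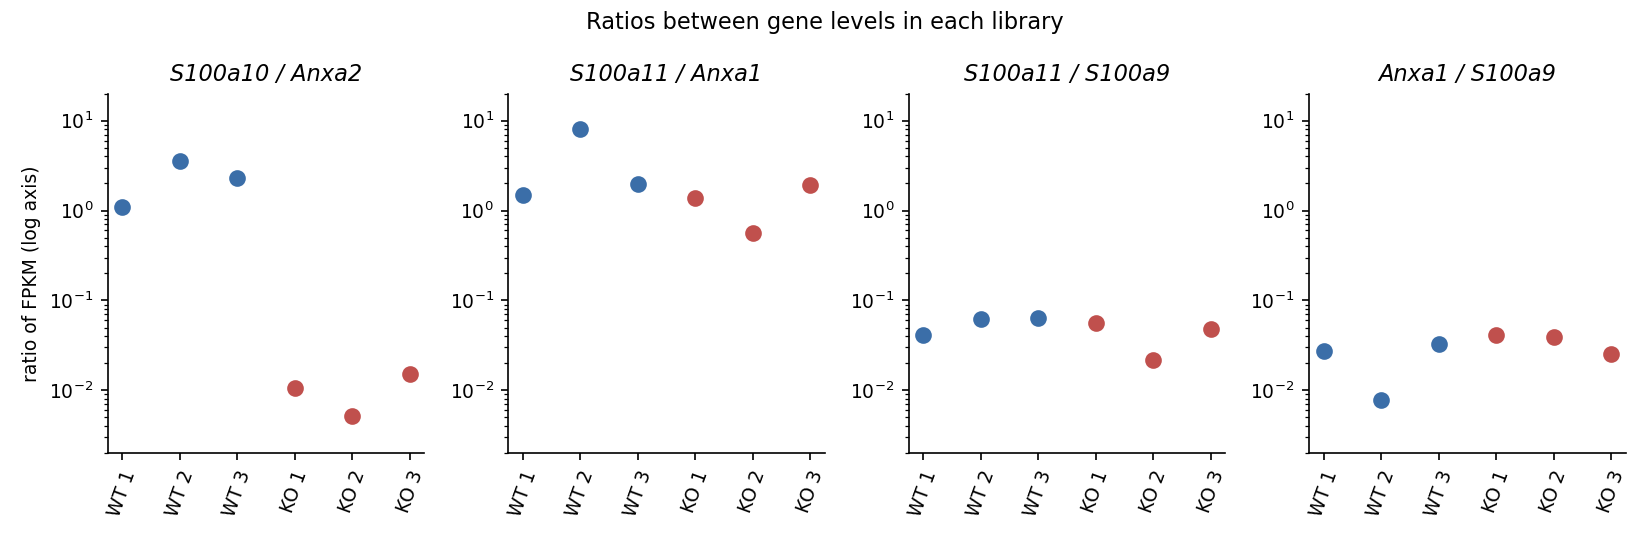
Each panel gives the ratio of 2 FPKM levels in each library (log axis), WT-labelled in blue and KO-labelled in red. The ratio of S100a10 to Anxa2 lies at 1.11 or above in the WT-labelled and at 0.0153 or below in the KO-labelled libraries, while the groups overlap for S100a11 to Anxa1, S100a11 to S100a9 and Anxa1 to S100a9.

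The rest of the S100 family was mostly silent. Of 11 further S100 genes, 3 passed the filter, and all 3 were lower in the KO-labelled libraries by limma, beside 13.3% of all genes tested. S100a9 was at 14452, 38832 and 2717 FPKM in WT 1 to WT 3 and at 35.3, 115 and 121 in KO 1 to KO 3 (log2 fold change −7.17 ± 1.09, limma, adjusted p = 0.00468). S100a8, its partner in calprotectin, had −7.31 ± 1.13 (adjusted p = 0.00502). The WT-labelled mean was 207 times the KO-labelled mean for S100a9 and 261 times for S100a8, but 95.02 and 92.40 times without WT 2, where the log2 fold changes were −6.29 ± 0.84 and −6.27 ± 0.81. S100a1, known from heart and skeletal muscle, was at 11.3, 36.6 and 7.07 against 1.86, 2.20 and 0.806 FPKM, with −2.61 ± 0.59 (limma, adjusted p = 0.0202). It reached 1 FPKM in only 2 KO-labelled libraries. Without WT 2 its fold change was −1.97 ± 0.32, and the ratio of means was 5.67 in place of 11.3. The call for S100a1 was lost without KO 1, KO 2 or KO 3 (adjusted p = 0.0707, 0.0620 and 0.0862, within 0.000189 to 0.0862 over its 16 alternatives). S100a5 and S100a16 had no reads in any library. S100a3, S100a7a, S100a14, S100b, S100g and S100z had at most 14 reads in a library.

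Of 7 further annexin genes, 4 passed the filter and 2 were lower past the threshold (13.3% of all genes tested were). Anxa3, an annexin of neutrophil granules, was at 20.5, 22.8 and 4.45 FPKM in WT 1 to WT 3 and at 0.133, 0.139 and 0.153 in KO 1 to KO 3 (log2 fold change −3.62 ± 0.57, limma, adjusted p = 0.00541). Without WT 2 the fold change was −3.24 ± 0.55. Anxa3 passed the filter only through the WT-labelled libraries. Anxa7 was at 16.4, 13.7 and 12.4 against 7.54, 6.81 and 8.30 FPKM, with −0.82 ± 0.23 (limma, adjusted p = 0.0397), a call lost in 8 of its 16 alternatives (limma, adjusted p from 0.000418 to 0.925 over the 16). These were leaving out WT 1, WT 3 or any KO-labelled library (limma, adjusted p between 0.0587 and 0.174), voom (0.291), the replicate block (0.129) and TPM (0.925), under which the fold change was −0.066. Without WT 2 it was −0.84 ± 0.17. Anxa9 had −0.39 ± 0.21 (limma, adjusted p = 0.239). Anxa11 was at 23.9, 0.843 and 16.2 against 16.3, 8.65 and 12.6 FPKM, and WT 2 alone set its direction, 0.51 ± 0.96 with that library and −0.66 ± 0.29 without it (limma, adjusted p = 0.745 and 0.105). With array weights, Anxa11 was lower past the threshold (−0.92, limma, adjusted p = 0.0239, within 0.0239 to 0.896 over its 16 alternatives). Anxa8 and Anxa13 had no reads, and Anxa10 had 1 read in WT 3.

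Position on chromosome 3 was described next. S100a13 starts 42 bases from S100a1, which runs the opposite way, and 6.836 kb separate S100a4 from S100a6. From 100 kb before S100a1 to 100 kb after S100a9 the table held 12 S100 genes, of which 6 were tested and 4 were lower past the threshold (S100a1, S100a6, S100a8 and S100a9). This count includes genes of the set, which were picked on this comparison. Over all genes tested, 13.3% were lower past the threshold. Of 16 other genes in the window, 4 were tested. Ints3, a gene named after its values were seen, was lower past the threshold (−1.10 ± 0.32, limma, adjusted p = 0.0493), and Chtop, Snapin and Ilf2, named in the same way, had log2 fold changes of 0.029, 0.31 and 0.65 and were not called. Silent and expressed S100 genes were interspersed along the cluster, with S100a5, at 0 in all libraries, between S100a4 and S100a6. S100a2, also in the cluster, had 4 reads in WT 2, 1 in KO 2 and none in the other libraries. In the same window around S100a11 and S100a10, none of the 11 other genes passed the filter.

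**Figure D4:**
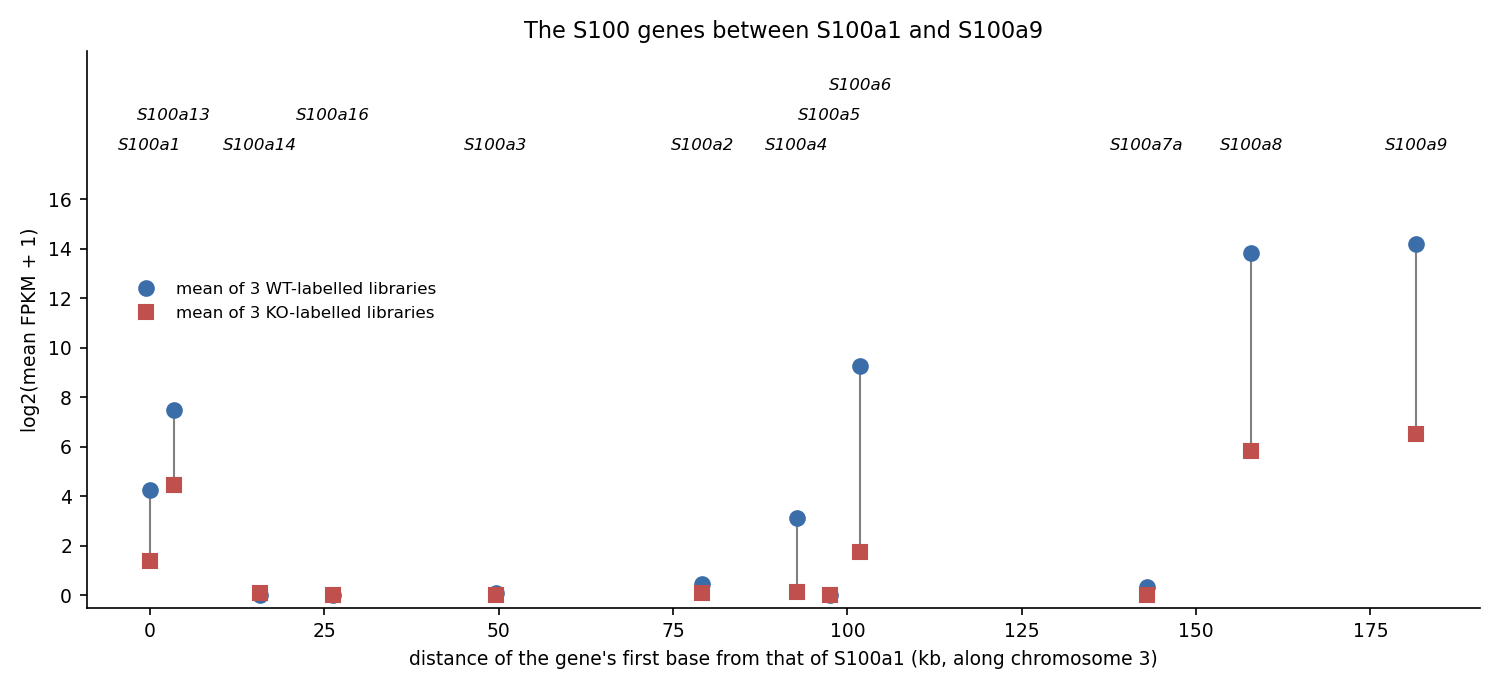
The log2 of the mean FPKM + 1 of each S100 gene is plotted against the distance of its first base from that of S100a1 along chromosome 3 (kb), for the 3 WT-labelled (circles) and 3 KO-labelled (squares) libraries. S100a1, S100a13, S100a4, S100a6, S100a8 and S100a9 have the WT-labelled mean above the KO-labelled mean, and the 6 genes S100a14, S100a16, S100a3, S100a2, S100a5 and S100a7a have means under 1 FPKM in both groups.

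Genes whose proteins bind, carry or sense those of the set were taken from a list of 17, chosen with earlier results known. Of these, 9 were tested, 4 were lower and 0 higher, beside 13.3% lower and 13.1% higher of all genes tested. Ahnak, a giant scaffold protein that S100a10 and Anxa2 hold at the plasma membrane, was at 203, 36.6 and 197 FPKM in WT 1 to WT 3 and at 3.53, 3.71 and 3.02 in KO 1 to KO 3 (log2 fold change −4.70 ± 0.66, limma, adjusted p = 0.00361). WT 2, the highest library for the S100 genes, was the lowest WT-labelled library for Ahnak, and −5.51 ± 0.13 was found without it. WT 2 also had the smallest share of reads in long genes, and the part of gene length in this was not tested. The formyl peptide receptors, through which Anxa1 acts on neutrophils, were Fpr1 at 42.6, 38.7 and 8.53 against 0.162, 0.144 and 0.375 FPKM and Fpr2 at 72.9, 79.4 and 17.8 against 0.290, 0.294 and 0.527 FPKM. Their log2 fold changes were −4.38 ± 0.60 and −5.14 ± 0.57 (limma, adjusted p = 0.00317 and 0.00158), or −4.06 ± 0.61 and −4.77 ± 0.55 without WT 2, and both passed the filter only through the WT-labelled libraries. Plaur, the urokinase receptor of the plasminogen system, was at 93.5, 81.3 and 16.8 against 9.40, 3.06 and 3.70 FPKM (−3.15 ± 0.72, limma, adjusted p = 0.0202, and −2.81 ± 0.76 without WT 2). Its call was lost without WT 1, KO 2 or KO 3 (limma, adjusted p = 0.0640, 0.0858 and 0.0836, within 0.000385 to 0.0858 over its 16 alternatives).

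The 5 other tested genes of this list were not called. Ager, the receptor RAGE for extracellular S100 proteins, was at 2.51, 11.6 and 2.47 FPKM in WT 1 to WT 3 and at 8.35, 7.42 and 5.83 in KO 1 to KO 3. It had a log2 fold change of 0.60 ± 0.54, and without WT 2 of 1.22 ± 0.18 (limma, adjusted p = 0.462 and 0.00311, within 0.000507 to 0.741 over its 16 alternatives). It was thus higher past the threshold only where WT 2 was left out or weighted down or the values were rescaled to TPM. Myh9, the myosin bound by S100a4, had −0.47 ± 0.57. Cacybp, which binds S100a6, had −0.013 ± 0.34, Rasa1, which binds Anxa6, had 0.54 ± 0.57, and Plgrkt, a plasminogen receptor, had −0.61 ± 0.23. Without WT 2, Myh9 (−1.11 ± 0.21) and Plgrkt (−0.54 ± 0.15) were lower past the threshold (limma, adjusted p = 0.00697 and 0.0293). Under the filter were Tlr4 (252, 75 and 71 reads against 3, 8 and 0), Plau (91, 18 and 40 against 2, 3 and 7), Plat (65, 17 and 53 against 4, 0 and 4), Pla2g4a (136, 56 and 23 against 1, 6 and 0), and Fgf1, Il1a, Syt1 and Dlc1, each with at most 16 reads in a library.

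Of 12 genes of calcium-dependent repair of the plasma membrane, in which annexins take part, 8 were tested, 2 were lower and 0 higher, beside the same 13.3% and 13.1% of all genes tested. Without WT 2, 5 of the 8 were lower, beside 3383 of all 13393 genes tested in that setting. Capn2, the large subunit of the calpain protease that cuts annexins and cytoskeletal proteins, was at 15.1, 11.3 and 13.6 FPKM in WT 1 to WT 3 and at 0.118, 0.240 and 0.137 in KO 1 to KO 3 (log2 fold change −3.61 ± 0.22, limma, adjusted p = 0.000271, and −3.72 ± 0.15 without WT 2). It passed the filter only through the WT-labelled libraries. Capn1, the large subunit of the other ubiquitous calpain, was at 73.1, 67.9 and 52.5 against 20.2, 13.5 and 20.5 FPKM (−1.79 ± 0.28, limma, adjusted p = 0.00497, and −1.74 ± 0.24 without WT 2), a call lost after rescaling to TPM (limma, adjusted p = 0.158, within 7.3e-05 to 0.158 over its 16 alternatives). Capns1, the small subunit of both, had −1.51 ± 0.45 and Ehd1, a membrane-shaping ATPase, −1.65 ± 0.57 (limma, adjusted p = 0.0514 and 0.0814), and both were lower past the threshold without WT 2 or without WT 3. The genes of the ESCRT arm, which pinches off damaged membrane, had −0.57 ± 0.22 (Pdcd6), −0.055 ± 0.34 (Pdcd6ip), −0.82 ± 0.45 (Chmp4b) and 0.60 ± 0.31 (Vps4b), and none was called with all libraries at equal weight. Pdcd6 was lower past the threshold without WT 2 (−0.55 ± 0.13, limma, adjusted p = 0.0172, within 0.00202 to 0.683 over its 16 alternatives), and Pdcd6, Pdcd6ip and Chmp4b were with array weights. Trim72, under the filter, had 1, 1 and 3 reads in the WT-labelled and 45, 29 and 43 in the KO-labelled libraries, Ehd2 had 4, 117 and 2 against 2, 5 and 1, Myof had 42, 22 and 16 against 2, 11 and 38, and Dysf had at most 5 reads in a library.

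Some lists of cell type markers were lower in the KO-labelled libraries like the set, and others were not. Their part in the differences of the set was not tested. Over all genes tested, 22.9% were lower in every KO-labelled than in every WT-labelled library. The share higher in every KO-labelled library was not counted. The sums below run from the lowest to the highest library, WT-labelled against KO-labelled. All 10 neutrophil markers, such as Ly6g, Camp and Ngp, were lower in every KO-labelled than in every WT-labelled library, and their sum was 2301 to 21439 FPKM against 30.2 to 87.0. Of 10 monocyte and macrophage markers 8 were separated in the same way, with sums of 331 to 4707 against 15.02 to 24.97 FPKM. Lyz2, which neutrophils also express, made up most of the WT-labelled sums, and the other 9 summed to 164, 163 and 41.6 FPKM in WT 1 to WT 3 and to 12.5, 14.99 and 10.9 in KO 1 to KO 3. Of 10 markers of effector CD8 T and NK cells 9 were separated so, with sums of 1856 to 5316 against 587 to 662 FPKM, and Gzma was separated in the opposite direction. Gzma made up nearly all of the KO-labelled sums (587, 566 and 615 FPKM), and the other 9 summed to 1843, 5265 and 2230 FPKM in WT 1 to WT 3 and to 54.2, 20.8 and 46.3 in KO 1 to KO 3. All 7 markers of immature T cells were higher in every KO-labelled library, with sums of 132 to 299 against 1410 to 1590 FPKM, and Ptcra, the chain of the pre-T-cell receptor, was at 0 in all WT-labelled libraries. The sum of 8 T-cell markers was 745 to 1510 against 849 to 1073 FPKM, which overlap. Of these markers, 2 were lower in every KO-labelled than in every WT-labelled library and 1 was higher. The lower ones were Cd2 (148, 400 and 172 against 101, 97.6 and 74.0 FPKM) and Cd5 (26.4, 32.8 and 32.4 against 15.3, 4.91 and 7.36). Lck was the higher one (182, 193 and 175 against 312, 305 and 302). Cd3e, which defines T cells, was present in both groups (42.7, 22.6 and 60.0 against 56.8, 44.5 and 53.7 FPKM).

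Markers of B, erythroid and stromal cells were counted beside these. The share of all genes tested that were lower in every KO-labelled library was again 22.9%. The B-cell sum was 1020 FPKM in WT 2, 14.9 and 21.2 in WT 1 and WT 3, and 1.99 to 2.68 in the KO-labelled libraries, with 7 of 8 markers separated. The erythroid sum was 42260 FPKM in WT 2, 87.2 and 347 in WT 1 and WT 3, and 13.5 to 85.8 in the KO-labelled libraries, with 5 of 7 markers lower in every KO-labelled library and 1, Epor, higher (0.489, 4.79 and 0.454 against 5.67, 4.95 and 6.15 FPKM). The stromal and endothelial sum, mostly Pecam1, was 5.76 to 11.2 against 17.2 to 18.2 FPKM, with 2 of 6 markers lower and 1 higher in every KO-labelled library, and Kdr was at 0 in all KO-labelled libraries. Within the WT-labelled group the S100 sum of the set had the same order of libraries as the neutrophil sum, with WT 2 highest and WT 3 lowest. The monocyte sum had that order only with Lyz2, without which WT 1 and WT 2 were nearly equal. The annexin sum had that order too, but WT 2 was 768 and WT 1 was 699 FPKM, a narrower step than for the S100 genes. WT 2 was also the highest WT-labelled library in the effector, T-cell, B-cell, erythroid and stromal sums, where WT 3 was above WT 1. These orders rest on 3 libraries and were not tested.

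**Figure D5:**
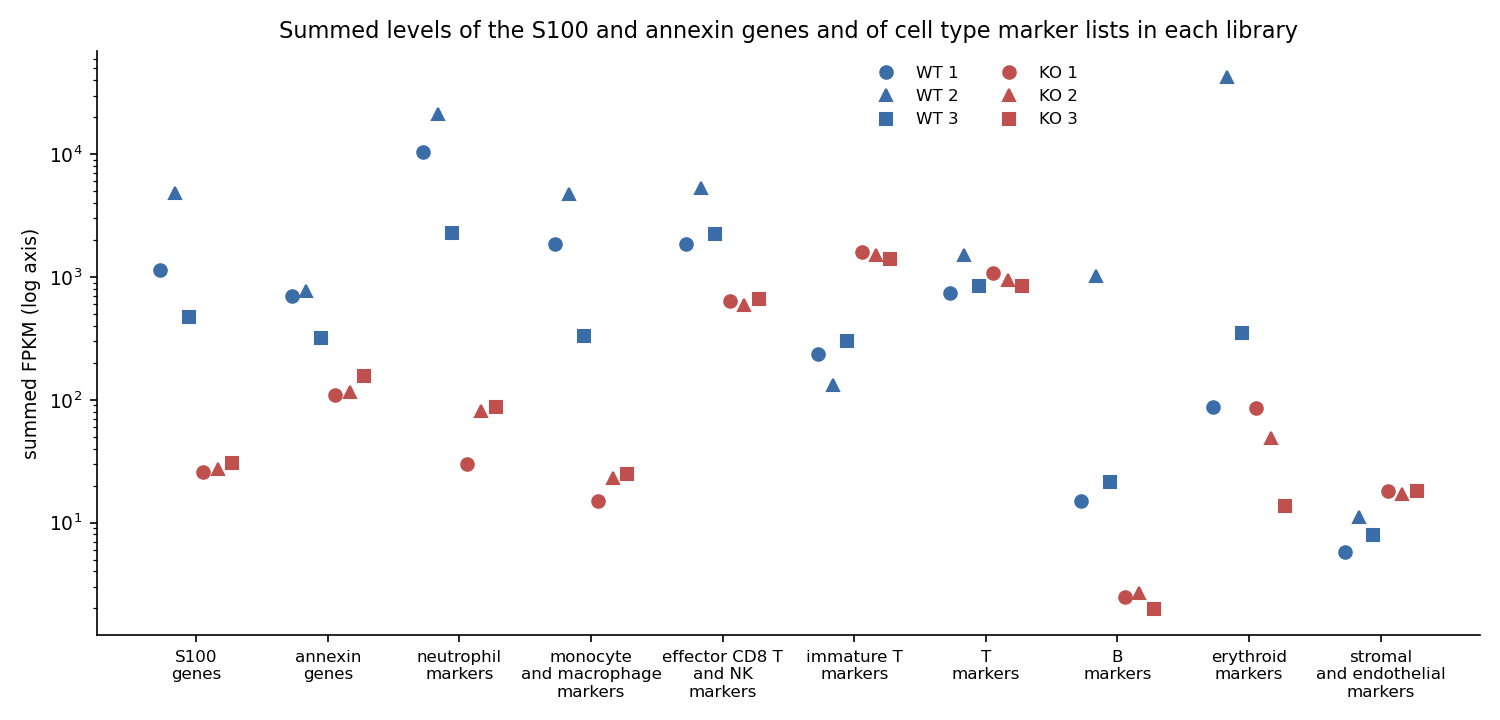
Summed FPKM (log axis) of the 5 S100 genes, the 5 annexin genes and 8 lists of cell type markers in each of the 6 libraries, WT-labelled in blue and KO-labelled in red. The neutrophil, monocyte and effector sums lie lower in the KO-labelled libraries like the S100 and annexin sums (Gzma is nearly all of the effector sum there), the immature T sum lies higher, and WT 2 stands out in the B-cell and erythroid sums.

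The genes tested were also ranked by how closely their log2(FPKM + 1) values followed each gene of the set over the 6 libraries. Pearson's r is given as a description, over libraries that fall into separate groups, share WT 2 as an extreme and share their scaling. S100a10 was followed most closely by Casp4, an inflammatory caspase (r = 0.9999), Reep2 and Gzmm, a granzyme of cytotoxic lymphocytes (both r = 0.999). Gzmm was at 67.1, 310 and 64.4 FPKM in WT 1 to WT 3 and at 0.693, 0.992 and 1.73 in KO 1 to KO 3. S100a6 was followed by Pisd, Igkv3-10 and Arrb2 (r = 0.998, 0.998 and 0.997), and S100a11 by Igkv6-20, Ppm1m and Arrb2 (r = 0.999, 0.998 and 0.998). Arrb2, a beta-arrestin, was at 139, 255 and 80.2 against 14.6, 15.5 and 17.0 FPKM. Anxa1 was followed by Ifitm6, Cd177 and Hsph1 (r = 0.999, 0.998 and 0.997). Cd177, a surface protein of neutrophils, was at 333, 295 and 80.2 FPKM in WT 1 to WT 3 and at 1.06, 2.48 and 2.97 in KO 1 to KO 3, with the order of the WT-labelled libraries that Anxa1 had.

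Anxa6 was followed by Nkg7, Ctsw and Cited2 (r = 0.999, 0.998 and 0.998). Nkg7 was at 359, 1053 and 349 FPKM against 16.2, 9.87 and 28.7, a wider gap than that of Anxa6, since r takes no account of scale. S100a4 was followed by Lgmn, Glmp and Zc3h10 (r = 0.999, 0.999 and 0.998), and S100a13 by Mpc2, Cyth2 and Ddx41 (all r = 0.999), which, like S100a13, had WT 2 highest and a narrow range among the other libraries. Ddx41 was at 19.8, 59.9 and 18.1 FPKM against 14.1, 13.4 and 13.8. For Anxa2 the closest genes were Stip1, Sdf2l1 and Gusb (r = 0.997, 0.989 and 0.989), with Stip1, a cochaperone, at 104, 157 and 59.3 against 57.9, 67.5 and 75.5 FPKM. For Anxa5 they were Aldoa, Cotl1 and Unc119 (r = 0.993, 0.989 and 0.986), with Aldoa, a glycolytic enzyme, at 143, 294 and 83.6 against 32.2, 30.0 and 56.2 FPKM.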

How the data were processed

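RNA of BM cells was measured in 3 WT-labelled and 3 KO-labelled libraries, grouped by the genotype in the sample labels. Per the labels and the study's methods, total RNA was extracted with Trizol, libraries were made with a NEBNext kit and paired-end reads were obtained on an Illumina NovaSeq instrument. The submitters' processing notes name HISAT2 (2.0.5), featureCounts (1.5.0-p3) and GRCm38 (mm10). The strand setting and the annotation release are not given in the sources used here, so reads of antisense neighbours of Anxa2 and Anxa4 could not be told apart from their own. The authors deposited FPKM per gene and library with the gene length they used. The study's own tests modelled counts; FPKM called for a model on the log scale. In every library 100% of the values were whole multiples of 1 read divided by gene length (tolerance 0.001), which gave the reads per gene. The library size the authors divided by was 0.645 (WT 2) to 1.21 times the recovered total, so a scaling per library is part of the FPKM. Coordinates of all 10 genes were identical to GENCODE M21.

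Genes with at least 1 FPKM in at least 3 of 6 libraries (13393) were compared on log2(FPKM + 1), which understates the change of low genes, with limma 3.58.1 (two-sided, intensity trend, Benjamini-Hochberg over all genes tested, threshold 0.05) in R 4.3.3 with the R package data.table (1.17.8). The fit was run on simulated data with independent values and the same spread in both groups. Those data held no library that stood apart like WT 2. An exact permutation test of 3 against 3 cannot go below p = 0.1, so none was used. P-values measure the spread between these libraries, which may be technical. Rates of reads, pooled over the libraries of a group, were compared with exact 95% binomial intervals. Tables were handled in Python 3.11.15 with pandas 2.3.3 and NumPy 2.4.6, intervals came from SciPy 1.17.1, and figures from Matplotlib 3.10.9.

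The 10 genes and the gene lists were chosen with earlier results of these data known. Named were all 10 genes, the tested genes of each family list, the called genes of the partner and membrane repair lists, genes under the filter, Phf6 and the 3 genes most like each gene of the set. The uncalled genes of the partner and membrane repair lists, the marker genes and the chromosome 3 neighbours were added after their values were seen. Alternatives were pseudocount 0.1, no filter, a mean FPKM of at least 5, TPM, median-of-ratios scaling, quantile normalization, removal of a length trend, voom on recovered reads, array weights, a replicate block and leaving out each library.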

Additional observations from a re-analysis of the deposited data

How the results depend on the processing

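Higher and lower genes over the whole table numbered 1754 and 1785, against 786 and 1051 with a mean FPKM of at least 5, 4388 and 4073 with array weights, and 938 to 3584 and 996 to 3383 when 1 library was left out (the highest without WT 2, the lowest without KO 2). TPM called 1081 lower and moved the median of all genes to 0.86 and the share of higher calls from 49.6% to 67.8%; voom moved them to 0.56 and 60.2%. Genes of the set lower past the threshold were 5, but 9 with array weights and 5 to 8 when 1 library was left out; their median of −2.37 became −4.79 with a pseudocount of 0.1, −3.97 with a mean FPKM of at least 5 and −5.07 with voom. Other annexins lower numbered 1 in place of 2 with TPM, voom or the replicate block, 3 with array weights, and 1 to 2 when 1 library was left out. Partners higher numbered 1 in place of 0 with TPM or array weights, and 0 to 1 when 1 library was left out. Membrane repair genes lower numbered 1 with TPM, 4 with quantile normalization, 7 with array weights and 2 to 5 when 1 library was left out, and 1 was higher with no filter. Array weights gave WT 2 a weight of 0.0509. The cause of these shifts was not tested, except that a higher mean FPKM leaves fewer genes.

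The log2 fold change turned its sign after rescaling to TPM for Anxa2 (0.037), Anxa9 (0.010), Myh9 (0.35), Cacybp (0.82), Plgrkt (0.20), Pdcd6 (0.25), Pdcd6ip (0.77) and Chmp4b (0.010). With array weights it turned for Anxa11 (−0.92), Rasa1 (−0.019) and Cacybp (0.21), and without WT 2 for the same 3 genes (−0.66, −0.13 and 0.28); leaving out 1 library at a time gave −0.66 to 1.22 for Anxa11, −0.13 to 0.95 for Rasa1, −0.24 to 0.28 for Cacybp and −0.36 to 0.13 for Pdcd6ip. Cacybp also turned with quantile normalization (0.28), the length trend removed (0.080), voom (0.41) and without KO 1 (0.15). Pdcd6ip also turned with quantile normalization (0.16), voom (0.35), and without WT 1, WT 3 or KO 2 (0.13, 0.064 and 0.080). No tested gene of the set but Anxa2 changed sign under any of these alternatives. Ranges were −8.18 to −6.28 for S100a11, −7.73 to −6.22 for S100a6, −8.28 to −6.09 for S100a10, −6.51 to −5.37 for Anxa1, −1.87 to −0.93 for Anxa6, −1.56 to −0.45 for Anxa5, −2.76 to −0.94 for S100a13, −5.07 to −1.42 for S100a4 (15 alternatives) and −1.31 to 0.037 for Anxa2.

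Deviations of same-numbered libraries from their group means correlated at 0.095, 0.10 and −0.15, within the range of different-numbered ones (−0.20 to 0.23). Pairing by number was thus not seen, but 3 libraries per group are too few to exclude it. With the replicate block, 1207 genes were higher and 1469 lower, and not every library correlated best with its own number. Median-of-ratios scaling left the calls as they were, since its size factors were equal in all 6 libraries (1.02).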

Other observations

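The 10 genes together took 0.297%, 0.406% and 0.144% of the recovered reads in WT 1 to WT 3 and 0.0414%, 0.0462% and 0.0586% in KO 1 to KO 3. The ratio of S100a13 to S100a1, which lie on opposite strands with 42 bases between them, was 4.32, 12.5 and 5.01 against 11.8, 9.79 and 25.3, with overlapping groups.

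With 3 libraries per group, the depth limits S100a4, S100a10 and Anxa4 in the KO-labelled libraries, where at most 27 reads per library stand behind each value. The difference between WT 2 and the other WT-labelled libraries cannot be told apart from a difference between mice, since no label gives the animal or the day of preparation. Protein levels and calcium were not measured here, and gene-level values do not tell isoforms apart.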
